A study of Mus musculus with 100 samples.

Results

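Gene expression in the prefrontal cortex of Myt1l heterozygous mice (HET) was compared between the day of birth (P0) and postnatal day 22 (P22), and the change was set against that of wild-type animals (WT) over the same ages. The members are all HET animals of these ages, chosen by their age and genotype labels alone, with 6 animals at P0 and 6 at P22, or 12 of the 53 animals and 22 of the 100 libraries of the series. HET animals carry 1 copy of a Myt1l allele with a deletion of 7 bp in exon 6, made by electroporation of CRISPR/Cas9 into zygotes, that shifts the reading frame and ends in an early stop. WT animals, 4 at P0 and 6 at P22, carry no such allele, and no other agent or transgene was given to either genotype. All animals have the strain label C57BL/6J, although the study's methods name C57BL6/N zygotes, and both sexes are in every group. The deletion is present in all cells from conception, so it is not restricted to neurons, and the counts do not separate reads of the deleted allele from those of the intact one. The study's methods also describe a shortened MYT1L protein made from the allele.

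MYT1L is a zinc finger transcription factor that neurons begin to express as they leave the cell cycle and keep thereafter, and it is known mainly as a repressor of programmes of other cell types. Between birth and weaning the rodent cortex ends neurogenesis, extends and prunes axons, forms most of its synapses, replaces foetal receptor and channel subunits by adult ones, and gains astrocytes, microglia and myelin. These steps are read in bulk tissue through their marker genes, and a lower number of cells of a type cannot be told apart from less RNA per cell.

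After summing the libraries of an animal, 30.8 to 138.1 Mreads per P0 HET animal and 31.1 to 53.8 Mreads per P22 HET animal were counted. The 4 P0 animals of sequencing identifier 1 (2 HET, 2 WT) were the deepest, with 123.4 to 144.9 Mreads each from a single library. In P0 WT this identifier and sex coincided, with 2 males in identifier 1 and 2 females in identifier 3. In HET the deep layer markers summed to 1138 to 1305 counts scaled to library size (CPM) at P0 and 874 to 1148 CPM at P22. The upper layer markers summed to 1975 to 2634 CPM at P0 and 1701 to 2107 CPM at P22. All 18 deep layer and 17 upper layer genes passed the filter, which a gene expressed at a single age can also pass. Markers of choroid plexus were low, with a summed level of 4.62 to 9.96 CPM at P0 and 6.2 to 12.2 CPM at P22 in HET. In WT the sum was 5.08 to 10.6 CPM at P0 and 4.89 to 128 CPM (median 7.23) at P22, the highest being animal P22_WT_447. Markers of striatum, which borders the dissected area, summed to 551 to 777 CPM in P0 HET and to 491 to 1469 CPM in P22 HET, the highest being animal P22_HET_444. In P0 WT they summed to 389 to 679 CPM.

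Myt1l, the targeted gene, lies on the plus strand of chromosome 12 (29528384 to 29923213 in mm10, ENSMUSG00000061911.15) and fell from P0 to P22 in HET. Its level was 508 to 608 CPM (median 537) in the 6 P0 HET animals and 239 to 264 CPM (median 247) in the 6 P22 HET animals, and the groups did not overlap. Levels are CPM scaled by TMM, which are not per length and so compare animals and not genes, and changes are log2 fold changes ± standard error (SE) from edgeR, P22 against P0. The HET change was −1.15 ± 0.06, a level at P22 of 0.45-fold that at P0 (exact permutation test, 2-sided, p = 0.00216, the smallest that 924 permutations of 6 against 6 animals allow). WT fell from 397 to 442 CPM (median 403) to 184 to 214 CPM (median 200), a change of −1.06. The change in HET differed from that in WT by −0.09 ± 0.09. At both ages every HET animal lay above every WT animal. Of its relatives, Myt1, which acts in progenitors and oligodendrocyte precursors, fell from 29.3 to 42.7 CPM (median 33.9) to 6.1 to 10.1 CPM (median 8.24), a change of −2.17 ± 0.09. St18 stood at −0.30 ± 0.17 and did not pass (edgeR, adjusted p = 0.113).

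Most of the measured transcriptome changed over these ages. Of 19784 genes tested, 8172 were higher (41.3%) and 8020 lower (40.5%) at P22 than at P0 in HET at a false discovery rate (FDR) under 0.05. Tested against a fold of 2, 3950 genes rose (20.0%) and 2982 fell (15.1%), and for 12013 genes (60.7%) the 6 P0 and 6 P22 HET animals did not overlap. In WT, 3902 genes rose (19.7%) and 2950 fell (14.9%) beyond 2-fold. Beyond 2-fold in both genotypes were 6062 genes, and all 6062 had the same sign. The labels do not say which animals were littermates, so the p-values measure only the spread between these animals. Unless stated, every rise or fall named below passed the test in HET.

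**Figure D1:**
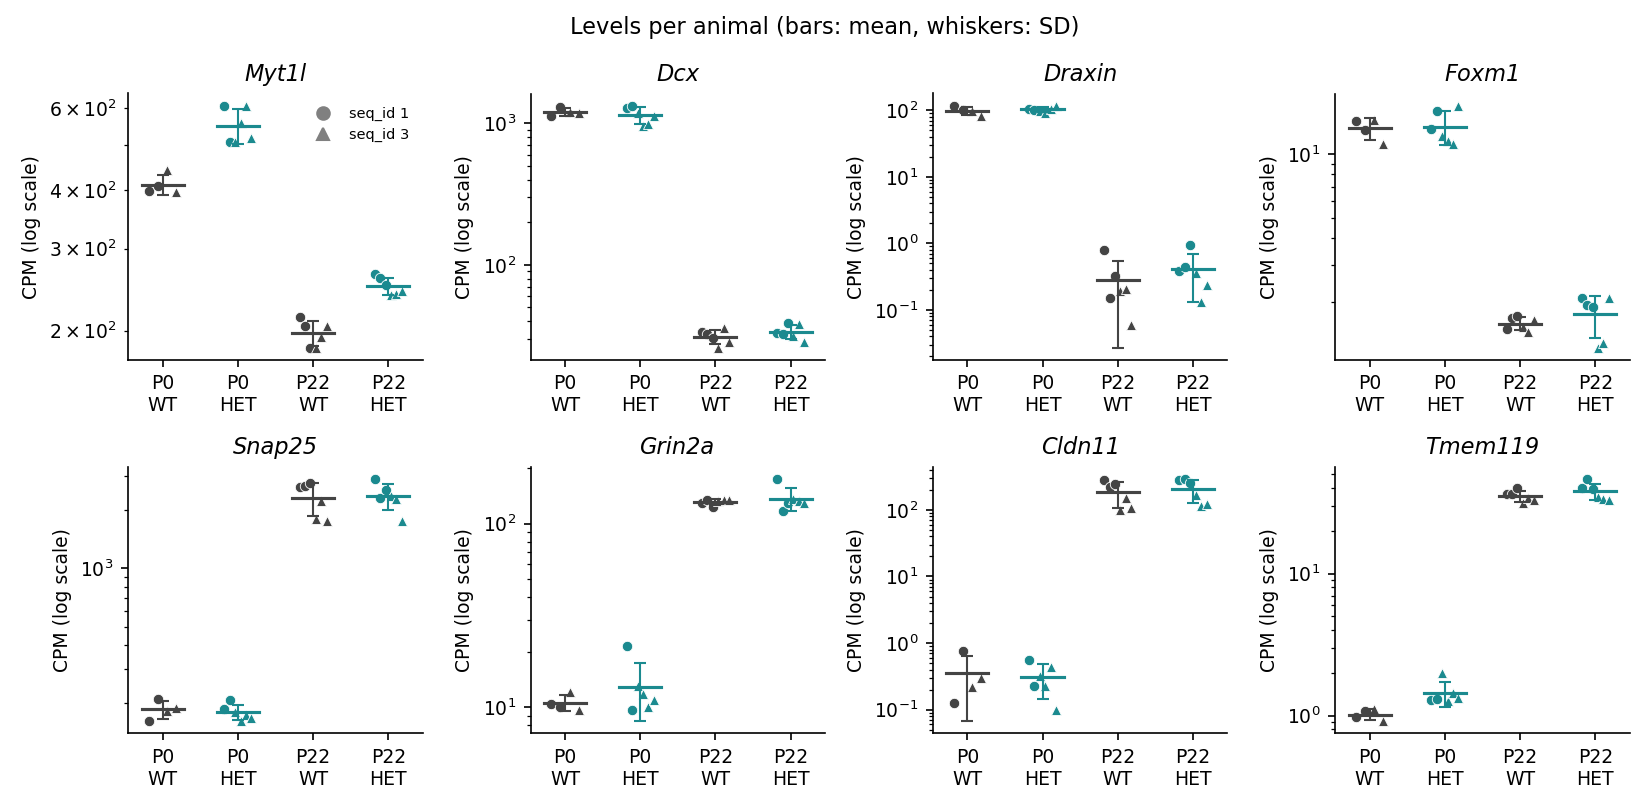
Levels of 8 genes in each animal, in CPM scaled by TMM on a log axis, for P0 HET, P22 HET, P0 WT and P22 WT. Circles are animals of sequencing identifier 1 and triangles of identifier 3, bars are group means and whiskers are SD. Myt1l, Dcx, Draxin and Foxm1 are lower at P22 and Snap25, Grin2a, Cldn11 and Tmem119 higher, without overlap between the ages in HET.

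Among the 10 largest falls in HET were those of Igfbpl1, Draxin, Trim67 and St8sia2. Igfbpl1, an insulin-like growth factor binding protein of newborn neurons and progenitors, went from 159 to 290 CPM (median 196) at P0 to 0 to 1.15 CPM (median 0.378) at P22. Draxin, a secreted guidance cue that repels growing axons, went from 92.4 to 118 CPM (median 103) to 0.131 to 0.946 CPM (median 0.371), a change of −7.98 ± 0.25 on the log2 scale (edgeR, adjusted p = 4.59e-18). For both genes every P22 HET animal lay far below every P0 HET animal. Trim67, a ubiquitin ligase of axon branching, fell by 7.36 ± 0.13, and St8sia2, which adds polysialic acid to the adhesion molecule NCAM, fell by 6.74 ± 0.10. The other genes of the 10 largest falls were Mex3a (−6.33), which encodes an RNA-binding protein, Cd24a (−6.10), a surface protein of young neurons, Gpc2 (−5.70), a glypican of growing axons, Vash2 (−5.65), a tubulin carboxypeptidase, Adamts7 (−5.62), a secreted metalloprotease, and Dpysl3 (−5.53), a collapsin response mediator. None of the 10 had a difference from WT at an unadjusted p under 0.05.

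Neuron migration and axon growth genes fell as a group, with 26 of 30 lower and 2 higher in HET and a median change of −1.80 against −1.72 in WT and −0.001 over all genes in HET. Dcx (doublecortin), which binds microtubules in migrating neurons, stood at 961 to 1337 CPM (median 1151) at P0 and at 28.4 to 38.9 CPM (median 32.7) at P22, a change of −5.11 ± 0.09. Dpysl5 and Crmp1, 2 further collapsin response mediators, fell by 5.29 ± 0.12 and 3.29 ± 0.07. Tubb3, a neuronal tubulin, fell from 2347 to 3895 CPM (median 3124) to 473 to 581 CPM (median 519), by 2.53 ± 0.07, without overlap. Both members that rose were Efna5 (0.67 ± 0.14), a guidance ligand, and Nrcam (0.84 ± 0.07), an adhesion molecule of axons and nodes. Here 23 of 30 genes had a more negative change in HET than in WT, with a median difference of −0.10. Those with the smallest p were Gap43, a growth cone protein, at −2.01 in HET and −1.66 in WT (difference −0.35 ± 0.11, unadjusted p = 0.00616, edgeR), and Cntn2, an axonal adhesion molecule, at −2.97 and −2.51 (difference −0.46 ± 0.15, unadjusted p = 0.00666).

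Cell cycle and intermediate progenitor genes fell. Of 40 cell cycle genes, 36 were lower and 4 higher at P22, with a median of −2.35 in HET and −2.58 in WT. Foxm1, a transcription factor of mitotic genes, fell from 11.1 to 16.9 CPM (median 12.6) to 1.22 to 2.1 CPM (median 1.91), by 2.97 ± 0.14. Ccna2 (cyclin A2), Rrm2 (ribonucleotide reductase) and Mcm7 (replication helicase) fell by 3.18 ± 0.14, 2.98 ± 0.12 and 2.68 ± 0.10, all without overlap between the ages. The 4 that rose act around entry into the cycle: Ccnd1 (1.47 ± 0.10), Ccne1 (1.76 ± 0.09), Ccne2 (0.72 ± 0.15) and E2f1 (0.67 ± 0.11). At an unadjusted p under 0.05 (edgeR), 2 of the 40 genes had a positive and 0 a negative difference from WT. Over all genes 8.19% had a positive and 6.2% a negative difference at this p. The 2 were the spindle genes Tpx2 (−2.08 in HET, −2.58 in WT, unadjusted p = 0.00319, edgeR) and Kif11 (−2.34 and −2.86, unadjusted p = 0.0174). Among 19 genes of intermediate progenitors and new neurons, 14 fell and 3 rose, with a median of −1.64 in HET and −1.67 in WT. Eomes (Tbr2), the defining factor of intermediate progenitors, went from 2.91 to 12.9 CPM (median 5.04) to 0 to 0.18 CPM (median 0.0638). Sox11 and Sox4, which drive early neuronal genes, fell by 5.39 ± 0.19 and 4.76 ± 0.18, Dll1, a NOTCH ligand, by 2.49 ± 0.11, and Hes6, an inhibitor of HES1, by 2.72 ± 0.11. Foetal RNA-binding and growth genes had 9 of 15 lower and 2 higher. Igf2bp1 and Igf2bp3, which bind and stabilise foetal transcripts, fell by 6.60 ± 0.26 and 6.06 ± 0.24, from 7.63 to 11.4 and from 14.3 to 18 CPM at P0 to under 1 CPM in every P22 HET animal.

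Radial glia genes were split, 8 higher and 8 lower of 19, and their median of −0.23 was 0.05 within identifier 1. Tnc, a matrix protein, and Fabp7 and Nes, a lipid carrier and an intermediate filament of radial glia, fell by 4.95 ± 0.16, 3.07 ± 0.12 and 2.71 ± 0.10. Those that rose included genes that astrocytes also use, such as Slc1a3, a glutamate transporter, at 117 to 226 CPM (median 178) and then 700 to 996 CPM (median 830), a 4.58-fold rise. The stem cell factor Sox2 stood at 26.5 to 36.1 CPM (median 27.8) at P0 and 16.9 to 38.3 CPM (median 27.3) at P22, and the groups overlapped (−0.24 ± 0.11, edgeR, adjusted p = 0.0509). It was −0.54 within identifier 3 and 0.15 within identifier 1. Sox9 and Id3, regulators of glial fate, rose by 0.69 ± 0.11 and 0.58 ± 0.13. In the NOTCH pathway 14 of 26 genes fell and 6 rose, with a median of −0.58 in both genotypes. Numb, an inhibitor of NOTCH receptors, rose by 2.42 ± 0.08 and the NOTCH target Hey1 by 1.51 ± 0.06. Hes1, another NOTCH target, rose by 1.18 ± 0.14. In the WNT pathway 19 of 48 rose and 17 fell.

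Synapse genes rose. Of 34 presynaptic genes 28 were higher and 5 lower at P22, with a median of 1.09 in HET and 1.28 in WT, and of 30 glutamatergic postsynaptic genes 25 were higher and 4 lower, with medians of 0.87 and 0.83. Snap25, a vesicle fusion protein of the SNARE complex, stood at 162 to 208 CPM (median 177) at P0 and 1770 to 2902 CPM (median 2346) at P22, a 12.6-fold rise (edgeR, adjusted p = 9.37e-20). Syp (synaptophysin) rose 5.75-fold and Vamp2 2.96-fold, with no overlap between the ages. Camk2a, the kinase of synaptic plasticity, rose 35.3-fold, from 91.6 to 161 CPM (median 119) to 4128 to 5118 CPM (median 4248). The postsynaptic scaffolds Dlg1 and Dlg4 (PSD-95) rose 5.18-fold and 3-fold. The presynaptic genes that fell were Syn3 (−1.64 ± 0.13), Slc17a6 (−1.42 ± 0.16), Doc2b (−0.86 ± 0.11), Syt4 (−0.65 ± 0.09) and Nrxn2 (−0.25 ± 0.06). Receptor lists rose in part, with 12 of 22 glutamate receptor genes higher and 5 lower, and 17 of 19 genes of GABA receptors and chloride transporters higher and 2 lower. Grin2c, an NMDA receptor subunit that appears late, went from 0.909 to 1.6 CPM (median 1.12) to 49.9 to 76.4 CPM (median 61.5). Gabrd, the extrasynaptic GABA receptor subunit, rose 23.7-fold. The 5 glutamate receptor genes that fell were Grin2d, Grin3a and the kainate receptors Grik1, Grik2 and Grik3, and the GABA and glycine receptor genes that fell were Gabra5 and Glra2.

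Pairs of genes whose balance is known to shift during maturation were chosen after their values were seen. They are given as ratios of reads scaled to library size and gene length (RPKM). The ratio of Grin2a to Grin2b, the adult and the foetal NMDA receptor subunit, was 0.0407 to 0.0722 in P0 HET and 0.442 to 0.616 in P22 HET. It was 0.0415 to 0.0473 in P0 WT and 0.446 to 0.543 in P22 WT. This shift came with a rise of Grin2a by 3.39 ± 0.13, while Grin2b stood at 0.17 ± 0.11 (edgeR, adjusted p = 0.164). The ratio of the chloride exporter Slc12a5 (KCC2) to the importer Slc12a2 (NKCC1), which sets whether GABA inhibits, went from 3.63 to 6.11 to 12.1 to 28.7 in HET. Both genes rose, Slc12a5 by 2.4 ± 0.14 and Slc12a2 by 0.52 ± 0.07. Scn1a to Scn3a, the adult and the foetal sodium channel, went from 0.199 to 0.305 to 3.18 to 5.24, with Scn3a down by 2.0 ± 0.08 and Scn1a up by 2.0 ± 0.10. The vesicular glutamate transporters Slc17a7 (VGLUT1) and Slc17a6 (VGLUT2) had a ratio of 1.41 to 2.74 and then 59.9 to 143. For Camk2a to Camk2b the ratio was 0.151 to 0.255 and then 5.2 to 7.93, and both rose, by 5.14 ± 0.15 and 0.34 ± 0.07. In all 5 pairs every P22 HET animal lay above every P0 HET animal, and the P22 HET and P22 WT ranges overlapped.

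Most potassium channel genes rose, while sodium and calcium channel genes were split. Of 48 potassium channel genes 39 rose and 4 fell, with a median of 1.45 in HET and 1.48 in WT. Kcnab2, an auxiliary subunit, went from 37.7 to 52.1 CPM (median 48.2) to 424 to 479 CPM (median 465), a 10.2-fold rise. Kcna2, an axonal channel, rose 8.39-fold, and Kcnj10 (Kir4.1), the potassium channel of astrocytes, 14.7-fold. Of 14 sodium channel genes 8 rose and 5 fell. Scn4b, an auxiliary subunit, rose by 8.01 ± 0.28. Of 15 calcium channel genes 8 rose and 5 fell, led by Cacnb4 (6.19-fold) and by Cacna1h, a low-voltage channel, which fell by 2.37 ± 0.15. Genes of the perineuronal nets, the matrix around mature interneurons, were split too. Of these 15 genes 8 rose and 7 fell, with a median of 0.515 in HET and 0.65 in WT. Among them the link proteins Hapln1 and Hapln4 rose 56.5-fold and 89.6-fold, and the juvenile proteoglycan Vcan fell by 2.91 ± 0.08.

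Glial genes rose without exception in 3 lists. All 20 oligodendrocyte and myelin genes, all 22 astrocyte genes and all 20 microglial genes were higher at P22 in HET, with medians of 6.64, 3.20 and 3.04, against 7.18, 3.41 and 3.32 in WT. Taken gene by gene, the median differences from WT were smaller, at −0.10, −0.10 and −0.14. They were negative for 12 of 20, 15 of 22 and 15 of 20 genes. Myelin genes were near the floor at P0, with a mean log2 CPM of −0.52 to 0.12 in HET. Cldn11, a tight junction protein of myelin, went from 0.0981 to 0.562 CPM (median 0.275) to 116 to 290 CPM (median 209), a 626-fold rise (edgeR, adjusted p = 6.33e-18). Fa2h, a hydroxylase of myelin lipids, rose 299-fold. Mobp, Mog and Opalin of myelin and Pvalb of fast-spiking interneurons had so few reads at P0 that a ratio of pooled reads is given, whose 95% interval covers counting error only. Mobp had 11 reads in the 6 P0 HET animals and 256109 in the 6 P22 HET animals, a ratio of 36070 (20158 to 72256). For Mog the reads were 14 and 23903, a ratio of 2645 (1576 to 4839), and for Pvalb 18 and 19448, a ratio of 1674 (1059 to 2825). Opalin had 7 and 5792 reads, a ratio of 1282 (622 to 3190). In astrocytes Gjb6 (connexin 30) rose 354-fold, S100b 178-fold, and Slc1a2 (GLT-1), the main glutamate transporter, 46.5-fold from 54 to 109 CPM (median 73.8) to 2885 to 5061 CPM (median 3793). In microglia Tmem119, a marker of resident cells, rose 26.4-fold from 1.26 to 2.01 CPM (median 1.32) to 33.3 to 46.4 CPM (median 37.1), and Csf1r, the receptor they depend on, 8.28-fold. Of 11 oligodendrocyte precursor genes 6 rose and 2 fell. Meningeal fibroblast genes had 14 of 17 higher and none lower, and Ptgds and Myoc, made largely at the meninges and by glia, were among the 10 largest rises at 309-fold and 368-fold.

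**Figure D2:**
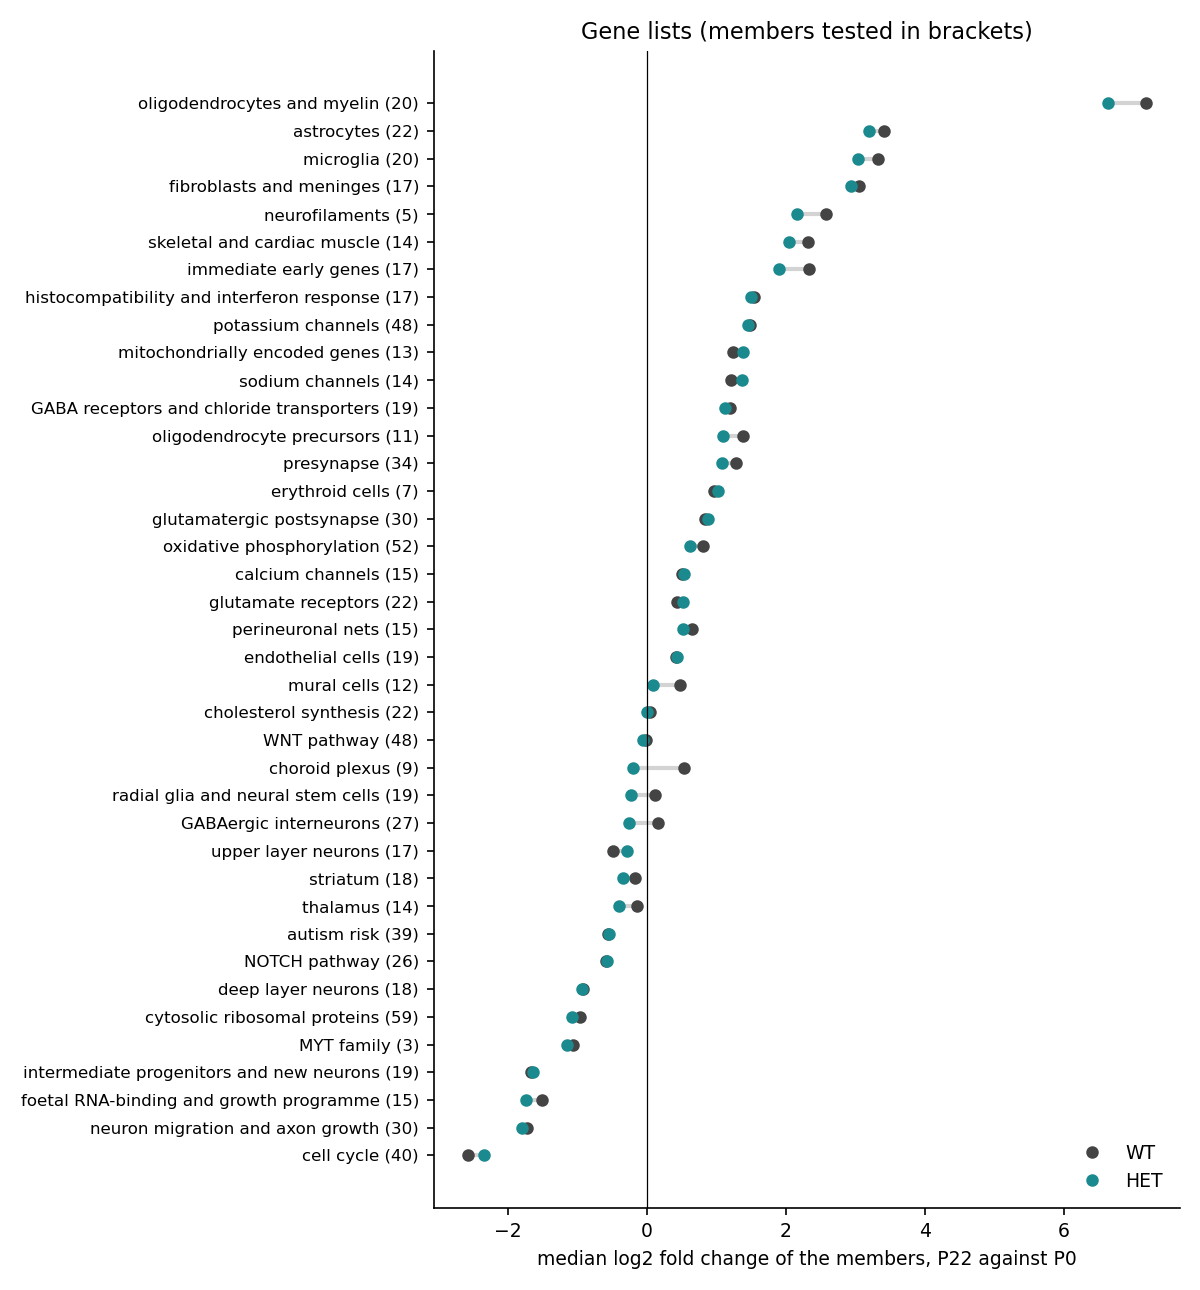
Median log2 change from P0 to P22 of each gene list in HET and in WT (horizontal axis), with 1 line per list and the number of tested genes beside its name. Myelin, astrocyte and microglial lists lie at the right, cell cycle and migration lists at the left, with HET and WT at 6.64 and 7.18 for myelin and −2.35 and −2.58 for cell cycle. The median of the gene-by-gene differences was −0.10 for myelin and 0.09 for cell cycle. The medians have opposite signs for interneurons, radial glia, choroid plexus and, close to 0, cholesterol synthesis.

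Energy and translation genes moved in opposite directions. Of 52 genes of oxidative phosphorylation 51 rose and none fell, with a median of 0.62 in HET and 0.81 in WT. Sdha, a subunit of complex II, rose from 125 to 162 CPM (median 146) to 364 to 407 CPM (median 384), or 2.68-fold, and Cox8a, of complex IV, 3.99-fold. Of 59 cytosolic ribosomal protein genes 58 fell and none rose, with a median of −1.08 in HET and −0.97 in WT. The HET medians within identifiers 1 and 3 were 0.84 and 0.47 for oxidative phosphorylation and −0.70 and −1.40 for ribosomal genes. Rplp0, of the ribosomal stalk, fell from 766 to 1340 CPM (median 1080) to 224 to 292 CPM (median 248), by 2.04 ± 0.13. For 52 of 52 oxidative phosphorylation genes and 59 of 59 ribosomal genes the change was more negative in HET than in WT, with median differences of −0.16 and −0.15. Only 5 of the former and none of the latter had a difference at an unadjusted p under 0.05, and members of such complexes move together within animals, so the count of signs is a description. Within identifiers 1 and 3 the median differences were −0.19 and −0.07 for oxidative phosphorylation and −0.09 and −0.09 for ribosomal genes. Without P0_WT_704 the median differences of the 2 lists were −0.25 and −0.29. The ribosomal median difference was −0.24 without P0_HET_306 or P0_HET_317, −0.09 without P0_HET_675, and −0.10 without P0_HET_693, P22_HET_688, P0_WT_309, P22_WT_443 or P22_WT_447.

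The HET change was then set against the WT change gene by gene. Over the 7427 genes whose mean change of both genotypes exceeded 2-fold, the slope through the origin of the HET on the WT log2 change was 0.972, and 54.6% of them had a smaller change in HET. The reverse slope, of WT on HET, was 0.992, so that both slopes lay below 1. Median absolute changes were 2.005 in HET and 2.026 in WT. The slope was 0.943 within identifier 1 and 0.93 within identifier 3. An age score per animal, the mean log2 CPM of genes that rose minus that of genes that fell, was −2.67 to −2.3 in P0 HET and −2.63 to −2.28 in P0 WT, and 1.86 to 2.09 in P22 HET and 1.86 to 2.08 in P22 WT. HET and WT overlapped at both ages.

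**Figure D3:**
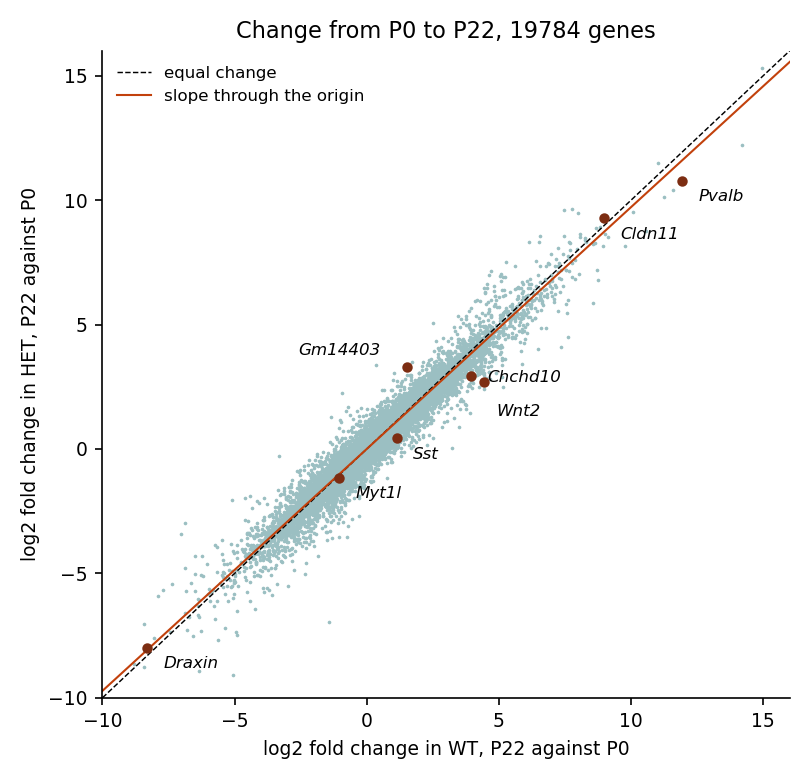
Log2 change from P0 to P22 of 19784 genes in WT (horizontal axis) and HET (vertical axis). The dashed line marks equal change and the solid line the slope of 0.972 over 7427 genes, and the points follow it over the whole range.

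Which genes matured less or more in HET was tested as the difference of the 2 changes. The difference of the change (HET minus WT) passed for 1 of 19784 genes (0.00505%) with edgeR, and for 2848 genes at an unadjusted p under 0.05. Of these, 1621 had a positive (8.19%) and 1227 a negative difference (6.2%). Among those with a rise over age, 732 of 1328 rose less in HET (55.1%), and among those with a fall, 778 of 1142 fell less (68.1%). Over all genes with a called age change these shares were 54.5% and 53.4%. The median SE of the difference was 0.185, against 0.125 for the HET change alone, and the median absolute difference over all genes was 0.186. The count of calls depended on the model: DESeq2 called 377 genes, and edgeR 92 when each age had its own identifier effect, 494 within identifier 1 and 0 within identifier 3. Leaving out animals in turn gave 0 to 98 calls, with 98 without P0_WT_704, 32 without P0_WT_309, 22 without P0_WT_674 and 0 without P0_WT_311. Leaving out any of P22_HET_687, P22_HET_688, P22_HET_695, P22_WT_443, P22_WT_445, P22_WT_685 or P22_WT_686 also gave 0.

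The gene that passed, Gm14403, is a predicted gene (mm10 chromosome 2, 177498215 to 177509763, plus strand) and lay outside the rule for named genes, so it is named after its values were seen. It stood at 0.196 to 0.701 CPM (median 0.36) in P0 HET and 3.42 to 4.7 CPM (median 3.96) in P22 HET, against 0.739 to 1.17 CPM (median 1.12) and 2.56 to 3.27 CPM (median 2.98) in WT. HET lay below WT at P0 and above it at P22, without overlap at either age. The change was 3.28 ± 0.19 in HET and 1.52 in WT, and the difference of 1.76 had an adjusted p of 0.0193 in edgeR. The difference was 1.51 within identifier 1 and 2.0 within identifier 3. Its family of clustered genes on this chromosome includes near copies among which reads may be split, so the value is uncertain.

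Next by p were 19 named genes, 10 with a positive and 9 with a negative difference, whose adjusted p lay between 0.0956 and 0.118 in edgeR and so did not pass. On the positive side stood Arfgef1, an exchange factor for ARF GTPases (0.65 ± 0.06 in HET, 0.19 ± 0.07 in WT), Ccp110, which caps centrioles (0.36 ± 0.09 and −0.27 ± 0.09), Sav1, a scaffold of the Hippo pathway (−0.50 ± 0.07 and −1.0 ± 0.07), Vezt, an adherens junction protein (−0.15 ± 0.08 and −0.75 ± 0.09), and Baz1b, a chromatin factor (−0.18 ± 0.06 and −0.61 ± 0.07). Phactr4, Fgd4, Zfp266, Zkscan3 and Zfp874b had differences of 0.82, 0.76, 0.56, 0.63 and 1.07. Ccp110 was higher at P22 in HET and lower in WT, 1 of 20 genes called with opposite signs. On the negative side, Chchd10, a protein of the mitochondrial intermembrane space, rose by 2.94 ± 0.15 in HET and 3.94 ± 0.19 in WT. Tspan9, Fbxo44, Vstm2l, Aifm2, Gng4 and Klhdc8a had differences of −0.57, −0.35, −0.55, −0.74, −0.82 and −0.59. For all 19 the HET and WT levels differed at P0 (edgeR, largest adjusted p 0.038), while at P22 the difference was −0.34 (unadjusted p = 0.0131) for Gng4 and between −0.13 and 0.15 for the others (unadjusted p of 0.136 or more). Over all genes in this fit, a difference between HET and WT passed after adjustment for 1851 genes at P0. At P22 it passed for 0 (280 at an unadjusted p under 0.05, edgeR), which does not mean equal levels. Myt1l and Gm14403, for example, did not overlap between the genotypes at P22. These comparisons share their animals with the difference of the change. The 19 genes were chosen by that difference, so a gap between the genotypes at P0 or at P22 is built into the choice. Their p-values at P0 are therefore no separate evidence.

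**Figure D4:**
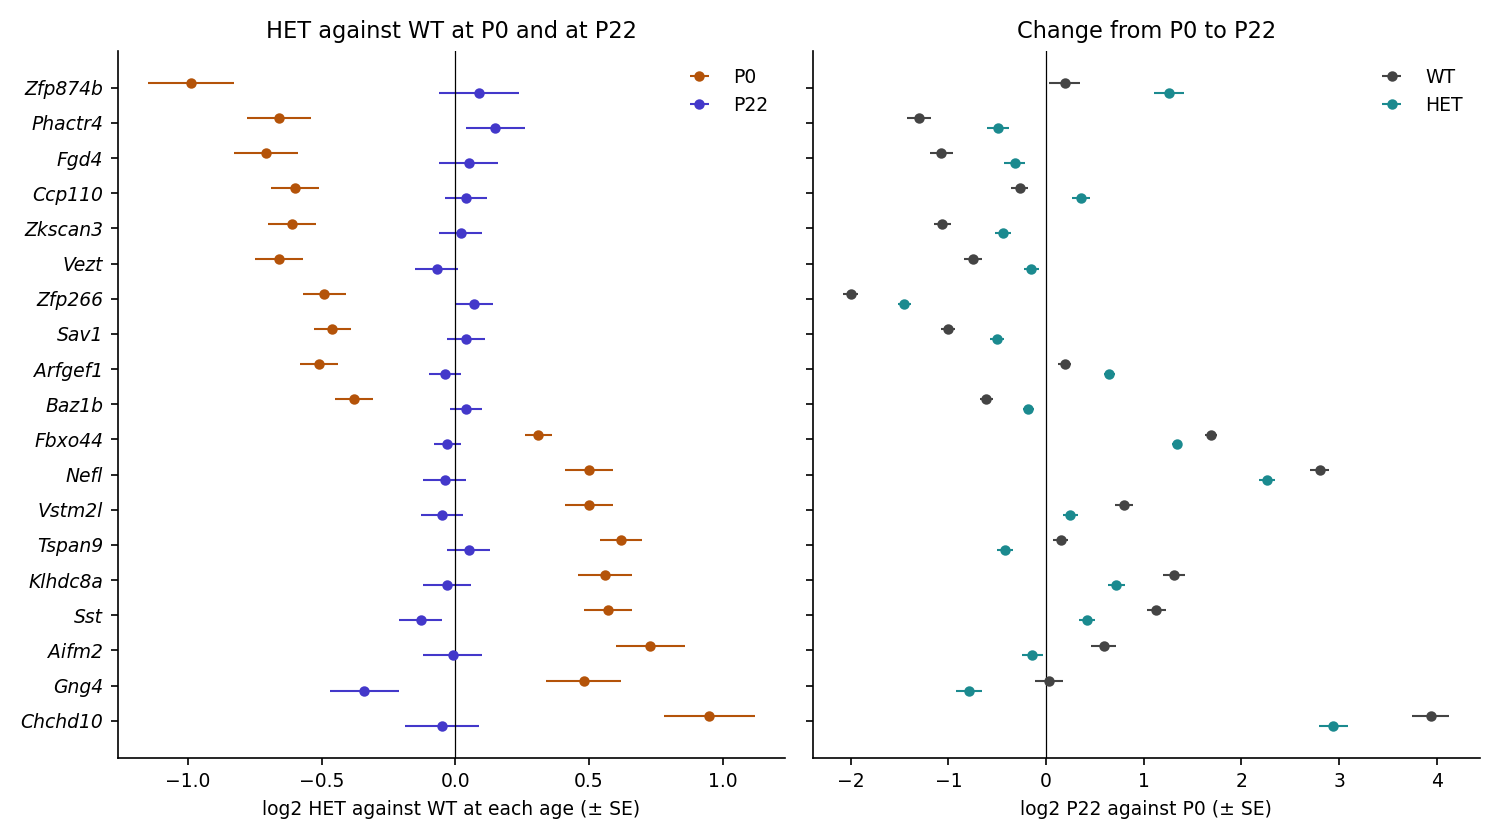
The 19 named genes with the smallest p for the difference of the change, 10 positive and 9 negative. The left panel gives the HET minus WT log2 difference at P0 and at P22 and the right panel the change from P0 to P22 in WT and HET, with whiskers of 1 SE. Differences lie away from 0 at P0 and near 0 at P22 except for Gng4 (−0.34).

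Sst and Nefl also belong to that set. Sst (ENSMUSG00000004366.4, mm10 chromosome 16, 23889573 to 23890958, minus strand) encodes somatostatin, a peptide of a main class of cortical interneurons. Its level was 116 to 166 CPM (median 148) in P0 HET and 163 to 223 CPM (median 199) in P22 HET. In WT it was 78.4 to 111 CPM (median 101) and 195 to 232 CPM (median 203). All 6 P0 HET animals lay above all 4 P0 WT animals, and at P22 the genotypes overlapped. The change was 0.42 ± 0.08 in HET and 1.13 ± 0.10 in WT, a difference of −0.70 ± 0.13 (edgeR, adjusted p = 0.0956), with −0.52 within identifier 1 and −0.89 within identifier 3. With each age given its own identifier effect, its adjusted p in edgeR was 0.0341. Nefl, the light neurofilament of axons, was at 79.2 to 105 CPM (median 96.3) and 379 to 515 CPM (median 447) in HET and at 58.2 to 79.1 CPM (median 63.1) and 428 to 496 CPM (median 460) in WT. It rose by 2.26 ± 0.08 in HET and 2.80 ± 0.10 in WT, and the difference of −0.54 ± 0.12 was −0.50 within either identifier. Nefm, the medium neurofilament, differed by −0.43 ± 0.15 and Nefh, the heavy one, by −0.21 ± 0.14.

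The interneuron list as a whole held 27 genes, of which 10 rose and 14 fell in HET. Its median change was −0.25 in HET, with −0.02 within identifier 1 and −0.41 within identifier 3, and 0.17 in WT. The median difference was −0.28, against −0.001 over all genes. The difference was negative for 21 of 27, and 10 had an unadjusted p under 0.05, all negative, against the 6.2% of all genes given above. No member passed after adjustment over all genes in the edgeR model used throughout. With each age given its own identifier effect Sst and Npy passed, and within identifier 1 Npy, Adarb2 and, in the positive direction, Maf. Sst passed without P0_HET_306, P0_WT_309, P0_WT_674 or P0_WT_704. The median difference was −0.35 within identifier 1, −0.26 within identifier 3, and −0.43 to −0.20 when single animals were left out, with −0.43 without P0_WT_704. The list score, the mean log2 CPM of the members, was 4.14 to 4.45 in P0 HET and 3.84 to 4.09 in P0 WT, so these groups did not overlap, and the median HET minus WT difference of the members was 0.40 at P0 and 0.0 at P22.

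Npy, a peptide of interneurons, stood at 123 to 181 CPM (median 128) in P0 HET and 108 to 125 CPM (median 114) in P22 HET, against 69.1 to 111 CPM (median 94.8) and 105 to 126 CPM (median 115) in WT. It was lower at P22 in HET (−0.25 ± 0.10, edgeR, adjusted p = 0.0228) and higher in WT (0.31 ± 0.11), a difference of −0.56 ± 0.15 (unadjusted p = 0.000955). The other 8 members at an unadjusted p under 0.05, named after their values were seen, were the vesicular GABA transporter Slc32a1 (0.68 ± 0.13 in HET, 1.34 ± 0.15 in WT), the GABA-synthesising enzyme Gad2 (0.90 ± 0.12 and 1.46 ± 0.14), the transcription factors Lhx6 (−2.65 ± 0.07 and −2.29 ± 0.08), Dlx2 (−2.86 ± 0.11 and −2.41 ± 0.12) and Dlx5 (−2.34 ± 0.17 and −1.76 ± 0.18), the RNA-editing family member Adarb2 (−0.98 ± 0.14 and −0.36 ± 0.16), and the peptides Cck (3.08 ± 0.11 and 3.55 ± 0.14) and Tac1 (0.72 ± 0.35 and 1.93 ± 0.42). Tac1 did not pass in HET. Vip, a peptide of another interneuron class, rose by 7.34 ± 0.13 in HET and 7.12 in WT, with a difference of 0.22 ± 0.20.

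Several of these genes, among them Slc32a1, Gad2, the Dlx genes and Tac1, are also expressed in striatum, and the striatal markers moved with them. The striatum score was 3.23 to 4.07 in P0 HET and 2.1 to 3.4 in P0 WT, and 2.78 to 5.15 in P22 HET. At P22 it split by identifier, at 3.6 to 5.15 in identifier 1 and 2.78 to 2.97 in identifier 3. Its median difference of the change was −0.69, with 16 of 18 genes negative, at −1.40 within identifier 1 and −0.25 within identifier 3. It was −1.13 without P22_HET_444, −0.35 without P0_WT_309 and −0.45 without P22_WT_445. Defining striatal genes were not at 0 in any group: Drd1, Drd2 and Adora2a were all detected in every animal. The part of striatal tissue in the interneuron values was not tested.

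**Figure D5:**
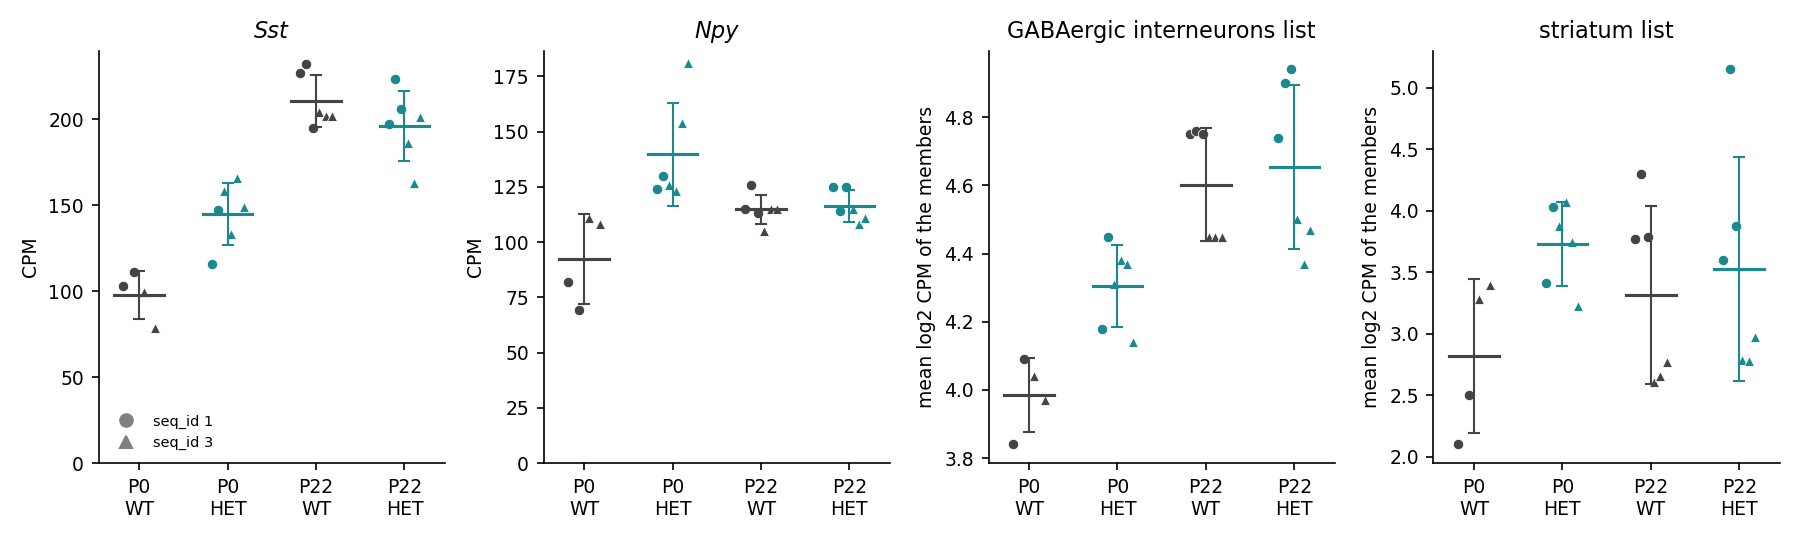
Levels of Sst and Npy (CPM scaled by TMM) and the interneuron and striatum list scores (mean log2 CPM) in each animal, by age and genotype. Circles are animals of sequencing identifier 1 and triangles of identifier 3, bars are means and whiskers are SD. P0 HET animals lie above P0 WT animals for Sst, Npy and the interneuron score, and the genotypes overlap at P22.

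The starts of Sst, Npy and Lhx6, members of this list at an unadjusted p under 0.05, are shown here, each with 250 bases before and 50 after the transcription start (RefSeq, GRCm38.p6), 5′ to 3′ on the gene's strand, to give the sequence around which their level is set. Capitals mark TGACGTCA, the palindromic cAMP response element, and AAAGTT (or AACTTT on the other strand), the core letters known for MYT family binding. The element TGACGTCA occurs in 1.79% and AAAGTT on either strand in 14.1% of 32851 promoter windows of this length. In the Sst window (chr16:23890795-23891094, minus strand) TGACGTCA occurs once. The Npy window (chr6:49822460-49822759, plus strand) holds neither, and the third of 3 listed starts of Lhx6 (chr2:36104011-36104310, minus strand) holds AAAGTT once. Lhx6 starts 1 and 2 hold neither, and only the window of the third is printed. Of 20 interneuron genes with a window, 2 held AAAGTT in at least 1 of their windows. That count is per gene and the 14.1% is per window, so the shares are not alike. These matches describe letters only.
Sst: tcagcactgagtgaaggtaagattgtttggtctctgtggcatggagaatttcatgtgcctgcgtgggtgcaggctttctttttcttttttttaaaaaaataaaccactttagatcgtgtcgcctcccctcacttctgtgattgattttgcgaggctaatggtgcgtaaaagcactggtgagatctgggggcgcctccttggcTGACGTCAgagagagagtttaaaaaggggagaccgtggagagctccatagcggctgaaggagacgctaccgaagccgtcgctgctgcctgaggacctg
Npy: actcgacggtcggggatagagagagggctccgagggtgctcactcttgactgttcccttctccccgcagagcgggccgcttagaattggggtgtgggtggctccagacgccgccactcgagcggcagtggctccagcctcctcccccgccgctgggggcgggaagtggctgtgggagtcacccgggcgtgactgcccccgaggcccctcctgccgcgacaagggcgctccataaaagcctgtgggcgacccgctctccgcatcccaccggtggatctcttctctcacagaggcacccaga
Lhx6: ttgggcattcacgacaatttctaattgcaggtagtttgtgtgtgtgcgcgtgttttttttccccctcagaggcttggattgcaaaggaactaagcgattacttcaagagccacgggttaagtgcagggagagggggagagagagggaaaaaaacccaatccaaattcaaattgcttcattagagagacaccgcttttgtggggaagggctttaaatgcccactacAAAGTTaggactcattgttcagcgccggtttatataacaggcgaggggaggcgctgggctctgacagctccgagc

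Other lists leaned in either direction, and no member passed. Upper layer neurons had a median difference of 0.07, with 5 of 17 genes positive and 1 negative at an unadjusted p under 0.05 (edgeR). Autism risk genes stood at 0.09, with 5 of 39 positive and 3 negative at this p. For sodium channels the median was 0.01, with 4 of 14 positive and 0 negative. Over all genes 8.19% were positive at this p. Negative medians were found for further lists. Mural cells, the pericytes and smooth muscle of vessels, had 12 genes, of which 5 rose and 4 fell in HET. Their median difference was −0.28, against −0.001 over all genes, with 11 of 12 genes negative. At an unadjusted p under 0.05 (edgeR) stood 4 of the 12, all negative, against 6.2% of all genes in that direction. The mural score was 2.68 to 2.98 in P0 HET and 2.18 to 2.62 in P0 WT, without overlap. Vtn (vitronectin), a pericyte protein, rose by 2.35 ± 0.09 in HET and 2.70 in WT (difference −0.35 ± 0.13, unadjusted p = 0.0158, edgeR), from 14.9 to 18 CPM (median 15.1) to 63.3 to 90.4 CPM (median 78.6) in HET and from 10 to 13.6 CPM (median 12.3) to 69 to 89.1 CPM (median 79.6) in WT. Every P0 HET animal lay above every P0 WT animal for this gene, and the genotypes overlapped at P22. The others at this p were Higd1b, Ndufa4l2 and the actin-binding protein Tagln, with differences of −0.47, −0.61 and −0.60. The mural median was −0.29 and −0.32 within identifiers 1 and 3, −0.14 without P0_HET_317 and −0.17 without P0_WT_704. For 2 more lists the scores did not overlap at P0. The neurofilament score was 4.53 to 5.1 in P0 HET and 4.17 to 4.48 in P0 WT, with a median difference of −0.43 over 5 genes that was −0.04 within identifier 1 and −0.25 without P0_HET_675. The muscle score was −0.36 to −0.12 in P0 HET and −0.83 to −0.47 in P0 WT, with a median difference of −0.22 over 14 genes that was −0.36 without P0_WT_309 and −0.35 without P22_WT_447.

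Single differences in other lists did not pass either and are given as values. Wnt2, a WNT ligand, rose by 2.68 ± 0.26 in HET and 4.44 in WT (difference −1.77 ± 0.42, unadjusted p = 0.000327, edgeR), at 0.327 to 1.16 CPM (median 0.68) in P0 HET and 0.0887 to 0.355 CPM (median 0.259) in P0 WT. Kcnj3, a G protein-gated potassium channel, rose by 2.54 ± 0.11 in HET and 1.92 in WT (difference 0.63 ± 0.15, unadjusted p = 0.000452). Gabrg3, a GABA receptor subunit, rose by 0.52 ± 0.10 and 1.15 (difference −0.63 ± 0.15, unadjusted p = 0.00043). Nkx6-2, a transcription factor of oligodendrocytes, rose by 5.81 ± 0.32 and 7.53 (difference −1.72 ± 0.59, unadjusted p = 0.00766). Vcan fell by 2.91 in HET and by 3.32 in WT, a difference of 0.41 ± 0.11 (unadjusted p = 0.00174). In microglia 15 of 20 genes rose less in HET, with a median difference of −0.14. An unadjusted p under 0.05 (edgeR) was found for 5, all negative, among them Csf1r (−0.30 ± 0.10) and C1qc (−0.45 ± 0.15). Over all genes 6.2% had a negative difference at this p. The microglial medians of the difference were −0.12 and −0.25 within identifiers 1 and 3. In the deep layers Pcp4 rose by 2.70 ± 0.11 and 3.17, and Ntsr1, a marker of layer 6, fell by 2.79 ± 0.16 and 2.91.

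Of further genes of interest, Prrx1, a mesenchymal factor, rose by 1.79 ± 0.14 in HET and 1.17 in WT, a difference of 0.62 ± 0.21 (unadjusted p = 0.00656, edgeR). Cdca7, a cell cycle gene, fell by 2.09 in both. Ptx3, a secreted pentraxin, fell by 4.19 ± 0.31 and 5.02, and Mmp14, a membrane metalloprotease, by 1.23 ± 0.12 and 0.84, with a difference of −0.39 ± 0.18 for Mmp14 (unadjusted p = 0.0459). None of these differences passed after adjustment.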

How the data were processed

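For each library, gene-level raw counts were deposited by the authors after STAR alignment to mm10. How and on which annotation reads were assigned to genes, and whether by strand, is not given in the sources used here, so sense and antisense reads may not be separate. Their deposited normalised counts were not used, nor was their table of DESeq2 fold changes and p-values.

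Groups came from the age and genotype labels. Libraries of an animal were summed, and the animal was the replicate (6 P0 HET, 6 P22 HET, 4 P0 WT, 6 P22 WT). Counts were tested with edgeR 4.0.16 in R 4.3.3 by the quasi-likelihood F test and glmTreat (2-fold), with TMM, filterByExpr, and sex and sequencing identifier as covariates, at a Benjamini-Hochberg FDR under 0.05. The script was tested on simulated data. Levels are CPM, and list scores are means of log2 CPM with a prior count of 2. All tests were 2-sided.

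The members, tests and 39 gene lists were chosen with earlier results of these data known. Named were Myt1l, Myt1, St18, genes of interest, the 10 largest rises and falls beyond 2-fold without overlap (mean log2 CPM of at least 1), up to 4 list members by smallest p, and for the difference 10 genes per direction (mean log2 CPM of at least 0) and up to 2 list members, without predicted genes, pseudogenes, Xist, Tsix and Y-linked genes. Pair genes, further list members and Gm14403 were added after their values were seen. A few genes that the rule selects are not reported here.

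Alternatives were DESeq2 1.42.0, limma 3.58.1 voom with a replicate block, other size factors, filters and covariates, HET only, all 53 animals, each identifier alone, thinned counts and leaving out animals. Promoters came from RefSeq.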

Additional observations from a re-analysis of the deposited data

Results flagged for a closer look

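Within each group of 4 to 6 animals, list scores (mean log2 CPM), the age score and the Myt1l level were checked for an animal far from the others. Of 164 values in HET and WT, 9 had one, and chance alone marks about 1 in 20. Animal P22_HET_446 had a score for histocompatibility and interferon response genes of 3.51, against 1.92 to 2.19 in the other 5 P22 HET animals. All 17 members were higher in it than in the others, with Irf7 at 13.8 CPM against 1.64 to 2.14 and Isg15 at 10.5 against 1.21 to 1.98. Over age, 13 of the 17 genes rose and 2 fell in HET, with a median change of 1.5. Without this animal 12 rose and 2 fell, with a median of 1.01. Animal P0_HET_693 had an erythroid score of 3.76 against 3.02 to 3.22 in the other P0 HET animals, a sodium channel score of 2.71 against 3.18 to 3.43, and an age score of −2.67 against −2.4 to −2.3. The endothelial score of P0_HET_317 was 3.72, against 3.53 to 3.6. In WT, P0_WT_704 had a cell cycle score of 3.36 against 3.58 to 3.61 in the other 3 P0 animals and a glutamate receptor score of 5.17 against 5.45 to 5.49. At P22 the glutamate receptor score of P22_WT_447 was 6.17 against 6.3 to 6.37, and the erythroid score of P22_WT_698 was 4.59 against 3.3 to 3.78. A change over age that differed between the genotypes was called for Gm14403, with a difference of 1.76.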

How the results depend on the processing

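The slope of the HET on the WT change was 0.943 with no filter on low counts and within sequencing identifier 1, 0.93 within identifier 3, and 0.956 to 0.981 when leaving out animals. With the fold tested lowered to 1.5, 5090 genes were lower in HET. For the HET minus WT difference of the change, 377 genes were called by DESeq2, 485 with no filter, 92 with an identifier effect of its own at each age, 494 within identifier 1, 0 within identifier 3 and 0 to 98 when leaving out animals. Of the 92, all had an unadjusted p under 0.05 in the main model, 80 were called by DESeq2, 35 within identifier 1, and 91 of 91 with a value had the same sign within identifier 3. Where 0 were called within identifier 3, 1750 of 19379 genes had an unadjusted p under 0.05, against 4078 of 20572 within identifier 1. The library numbers mark only repeat libraries of an animal and pair no animals. With libraries as samples, the number as replicate block and the animal as random effect (limma voom, correlation within animals 0.791), 1082 genes were called. The Myt1l change ranged from −1.28 to −1.12. Sox2 was 0.15 within identifier 1, where the median changes of the radial glia, WNT, mural, striatal and choroid plexus lists also changed sign. Scaling by library size alone moved the median change of all genes from −0.001 to −0.131 in HET. The causes of these shifts were not tested. The differences of Gm14403 and of the 19 genes shown with their P0 and P22 values had the same sign in all 28 edgeR models checked for sign. These genes were chosen by the p of this same difference, and most of the models share most of their animals. A constant sign is therefore no independent support. Not all alternatives were among the 28, thinned counts for example. Other differences did not keep their sign, such as the median of the immediate early genes within identifier 1. P0 WT holds 4 animals, in which sex and identifier coincide.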

Other observations

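Gene groups outside the comparisons above are given here for HET. Over all genes 41.3% were higher and 40.5% lower at P22, so a called change is the usual case. All 13 mitochondrially encoded genes rose, with a median change of 1.38 in HET and 1.24 in WT. Among them mt-Co1, a core subunit of complex IV, rose by 1.71 ± 0.16 and mt-Cytb, of complex III, by 1.09 ± 0.14. Of 14 muscle genes that passed the filter, out of 20, 10 rose and 3 fell, with a median of 2.05 in HET and 2.32 in WT. Their summed level was 20.8 to 31 CPM at P0 and 101 to 174 CPM at P22, carried mostly by the myosin light chain Myl4 (5.38 ± 0.12, mean 59.1 CPM at P22) and the troponin Tnnc1 (4.85 ± 0.14, 29.7 CPM). Endothelial genes had 10 of 19 higher and 2 lower, led by the anion transporter Slco1a4 (6.11 ± 0.20) and Ly6a (3.88 ± 0.15). The cholesterol synthesis list was even, with 7 of 22 higher and 7 lower.

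Of 39 autism risk genes 24 were lower and 11 higher at P22 in HET, with a median of −0.54 in HET and −0.56 in WT. Those lower included Asxl3 (−3.09 ± 0.08), a chromatin factor, Reln (−2.07 ± 0.09), a secreted guide of cortical layering, and Kdm5b (−1.53 ± 0.07), a histone demethylase. Those higher included the synaptic scaffolds Shank3 (1.80 ± 0.11) and Anks1b (1.77 ± 0.05) and the sodium channel Scn2a (1.24 ± 0.11). Among immediate early genes 14 of 17 rose, with Egr1 at 9.34 to 34.4 CPM (median 19.1) and then 122 to 336 CPM (median 160), and with a median difference from WT of −0.34 that was 0.52 within identifier 1 and −0.72 within identifier 3. Of 20 genes called in HET and WT with opposite signs, the largest were Tm6sf2 (1.29 ± 0.49 in HET, −1.37 ± 0.52 in WT) and Noxred1 (1.15 ± 0.30 and −1.01 ± 0.31).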
